A study of Mus musculus with 6 samples.

Results

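NF-E2, the small Maf proteins, the Bach repressors and their regulator Keap1 were followed through 9 genes: Nfe2, Nfe2l1, Nfe2l2, Maff, Mafg, Mafk, Bach1, Bach2 and Keap1. The genes were chosen by their names, with earlier results of these data known, and 13 of the 55681 probes of the array carry one of these names. RNA came from the mouse line G1E-ER-GATA-1, erythroid progenitors that have lost the Gata1 gene and carry GATA-1 joined to the hormone-binding part of the oestrogen receptor, so that β-estradiol turns the factor on. Cells of the control group (3 samples) received a non-targeting siRNA and cells of the knockdown group (3 samples) an siRNA specific for Mi2β, with nucleofections at 0 h and 24 h. All 6 samples received β-estradiol at 24 h and were harvested at 48 h, so no group without GATA-1 activity or without nucleofection is part of the comparison. Mi2β, the product of Chd4, is the ATPase subunit of the nucleosome remodelling and deacetylase complex NuRD, and the comparison asks which transcripts depend on it. All samples are of 1 cell line, and the labels do not say that they came from separate cultures, so a p-value here speaks of the spread between 6 samples that may be technical repeats.

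The proteins are basic leucine zipper factors that bind DNA in pairs. A CNC subunit (Nfe2, Nfe2l1 or Nfe2l2, the last 2 also called NRF1 and NRF2) or a Bach repressor joins 1 of the small Maf proteins, which have no activation domain of their own, and the pair binds Maf recognition or antioxidant response elements. In erythroid cells and megakaryocytes NF-E2, the pair of Nfe2 and a small Maf, is known for its sites in the globin locus control region and for its role in platelet formation. Bach1 is released from its targets when haem rises, and Keap1 holds NRF2 for degradation until oxidants or electrophiles modify it.

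Sequences of probes and promoters of some genes named in the results are given first. The probes that read Nfe2, Mafk and Bach2 are each 60 bases long, and the first 30 bases of each are shown, 5′ to 3′, because the fall of Nfe2, the difference in Mafk that missed the threshold and the background signal of Bach2 each rest on 1 spot per array and probe. The Nfe2 probe lies at chr15:103078838-103078897 on the minus strand, the Mafk probe at chr5:140278221-140278280 on the plus strand, and the Bach2 probes at chr4:32588782-32588841 and chr4:32673009-32673068 on the plus strand, all in mm9 per the file headers.
Nfe2 probe A_51_P515965: gaaccaaaatggaggctacagattgagctg
Mafk probe A_55_P1953241: gccccatggcactgtgtcactgaaatttca
Bach2 probe A_55_P1956370: cttctggcaagcactggttggacagacgaa
Bach2 probe A_66_P114768: tgaattgctagtgtttactgaattttgtct

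RefSeq's promoters of GRCm38.p6 held 8 of the 9 genes, in 14 entries, because Nfe2l1 has 5 and Maff has 3. Nfe2 had no entry. In the 250 bases before each start site, both strands were searched for TGACTCA, the core of an NF-E2 site. They were also searched for TGACNNNGC, the core of an antioxidant response element, which can overlap the first motif. The third search was for a GATA site, taken as AGATAA or as the second form named beside its count. TGACTCA was in none of the 14 member entries, against 4.46% of all 32851 entries. TGACNNNGC was in 4 of the 14, those of Nfe2l2, Mafg and Mafk and the first of Maff, against 10.2% of all entries. A GATA match, counting TGATAA as well, was in 3 of the 14, those of Bach2 and Keap1 and the first of Maff, against 16.6%. These matches are descriptions of letters in a window and say nothing of binding in these cells. Some of the Nfe2l1 windows overlap, so the 14 entries are not 14 separate stretches. Counts this small cannot be set against the shares of all entries. The 250 bases before the start of Mafk are printed because Mafk is the member nearest to the threshold after Nfe2, and those of Ugdh and Prdx1 because they are the NRF2 targets with the largest fall and the single rise. Capitals mark TGACTCA and TGACNNNGC on either strand.
Mafk, chr5:139791286-139791535, plus strand: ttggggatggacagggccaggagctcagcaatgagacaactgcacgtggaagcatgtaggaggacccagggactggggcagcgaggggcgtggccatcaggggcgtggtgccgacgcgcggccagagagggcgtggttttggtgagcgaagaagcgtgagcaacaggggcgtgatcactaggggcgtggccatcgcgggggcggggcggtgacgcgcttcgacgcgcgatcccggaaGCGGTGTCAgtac
Ugdh, chr5:65435843-65436092, minus strand: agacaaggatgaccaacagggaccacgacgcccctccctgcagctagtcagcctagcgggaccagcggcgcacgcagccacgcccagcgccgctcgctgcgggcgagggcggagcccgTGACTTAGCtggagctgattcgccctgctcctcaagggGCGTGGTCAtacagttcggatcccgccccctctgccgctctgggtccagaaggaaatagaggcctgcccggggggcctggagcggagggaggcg
Prdx1, chr4:116685349-116685598, plus strand: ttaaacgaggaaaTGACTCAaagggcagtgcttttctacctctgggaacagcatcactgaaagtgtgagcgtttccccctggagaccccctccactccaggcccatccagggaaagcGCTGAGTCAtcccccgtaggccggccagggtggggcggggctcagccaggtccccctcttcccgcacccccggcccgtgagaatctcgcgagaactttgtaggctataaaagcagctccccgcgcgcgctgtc
In Mafk the single match began 13 bases before the start site. In Ugdh the 2 matches of TGACNNNGC began 132 and 94 bases before it. In Prdx1 TGACTCA was matched 237 and 131 bases before the start, and the second of these overlaps a TGACNNNGC match that begins 133 bases before it.

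Each array measured 1 sample, and values are log2 of the processed spot intensity minus the array's 75th percentile, so 0 means the signal of that percentile. On the control arrays 53.1% to 56.5% of probes were well above background, and on the knockdown arrays 48.5% to 74.0%. Chd4 was 5.93, 6.00 and 5.75 on the control arrays and 4.62, 4.60 and 4.54 on the knockdown arrays, a change of -1.31 ± 0.10 (SE, n = 3 per group; limma adjusted p = 0.00161). Of 22133 genes tested with limma, 1105 rose and 1010 fell at an adjusted p under 0.05, and the median change of all genes was -0.03. The line's erythroid label was checked on 12 markers: all 12 were measured, with adult globin genes among them, and their summed linear signal was 1980 to 2100 times the 75th percentile on the control arrays and 2240 to 2500 times on the knockdown arrays, a sum that globin genes dominate. They went both ways: 3 rose (Epb4.2, Alas2 and Hbb-bt) and 2 fell (Ahsp, by 1.11, and Slc4a1, by 1.04, on the log2 scale; limma adjusted p = 0.00451 and 0.0121). Of all genes, 4.99% rose and 4.56% fell. The call of Slc4a1 was lost without control replicate 1 or 2 or knockdown replicate 1 (limma adjusted p from 0.0519 to 0.0533), and that of Hbb-bt without knockdown replicate 1 (0.0545). Epb4.2 was at low signal, with a control mean of -3.67. Its rise of 1.75 was 0.75 with normexp background correction (limma adjusted p = 0.0014), and its call was lost in slide row 1 alone (0.0583). Of the lymphocyte markers 3 of 8 were measured and of the granulocyte markers 5 of 9, and limma called none of these (0 also at an unadjusted p under 0.05). Of 8 macrophage markers 5 were measured and 1, Cd68, rose (limma adjusted p = 0.0305), a call lost without control replicate 2 or 3 or any 1 knockdown array (0.0731 to 0.14). Megakaryocyte and mast cell markers are given beside the results they move with.

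Nfe2, the blood-cell CNC subunit that gives NF-E2 its specificity, was the only one of the 9 genes that fell, and none rose (0 also at an unadjusted p under 0.05 with limma). Of the 8 genes that were measured, that is, well above background on at least 3 of 6 arrays, 1 fell against 4.56% of all genes. The groups did not overlap in 3 of the 8, each lower after the knockdown, against 18.4% of all genes lower without overlap and 31.1% without overlap in either direction. The change was below 0 in 7 of the 8 with the main scaling, against 54.5% of all genes, but Nfe2l1 also went below 0 with array median scaling (-0.17), and Keap1 went above 0 with normexp and quantile normalization (0.021). Within the slide row that holds replicate 3 of each group, Maff, Mafg and Bach1 were above 0 (0.10, 0.17 and 0.11) and Nfe2l1 was below it (-0.21). The median change of the 8 genes was -0.21, beside -0.03 for all genes. Bach2 was not measured. Counts of 1 and 3 among 8 genes are too small to set against these shares.

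**Figure D1:**
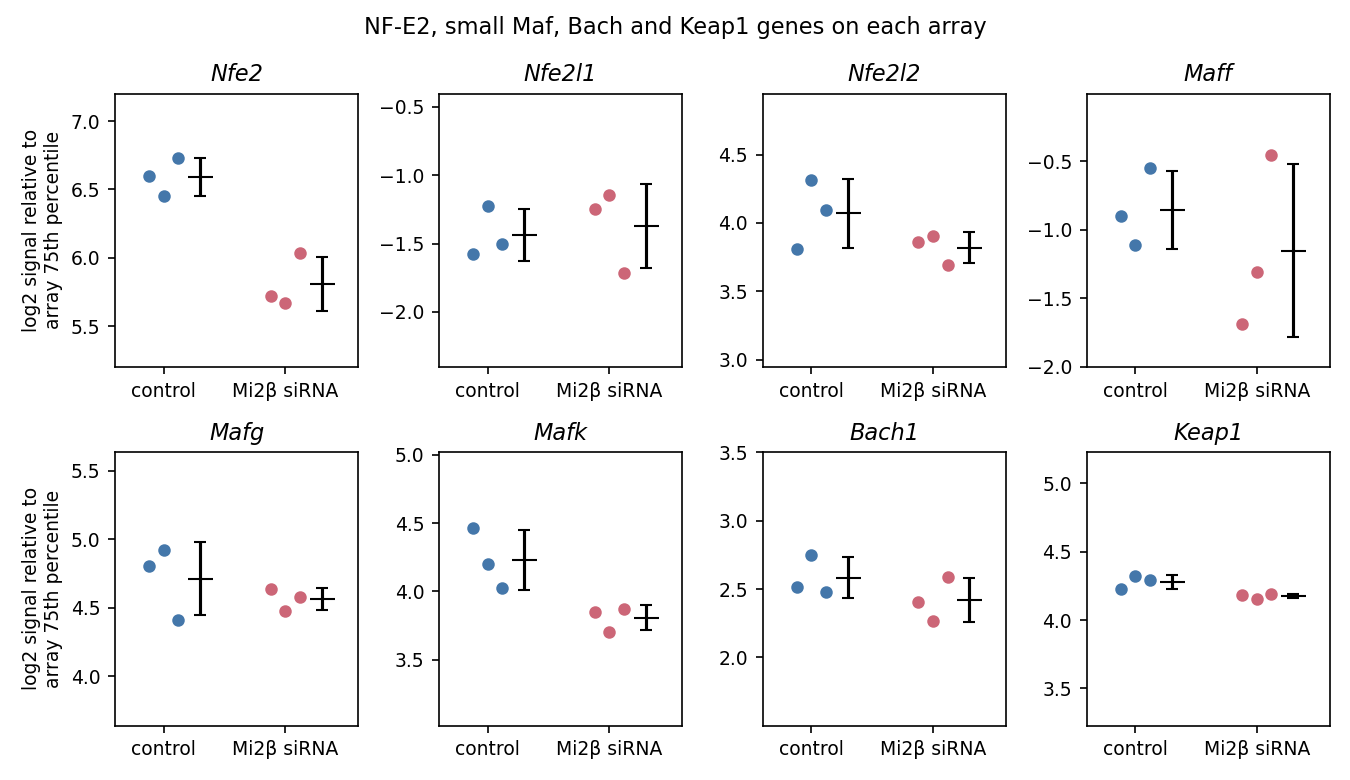
Log2 signal relative to the array's 75th percentile (vertical axis) of the 8 measured genes, 1 point per array, with control arrays in blue, Mi2β siRNA arrays in red, and the mean ± SD (n = 3) as a black bar beside each group. Every panel spans 2 log2 units around its own mean, so sizes of change can be compared between panels and levels cannot; the groups are apart for Nfe2, Mafk and Keap1.

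Among the CNC subunits, Nfe2 was 6.60, 6.45 and 6.73 on control arrays 1 to 3 and 5.72, 5.67 and 6.04 on knockdown arrays 1 to 3. The lowest control array lay above the highest knockdown array, knockdown replicate 3. The mean went from 6.59 ± 0.14 to 5.81 ± 0.20 (SD, n = 3 each), which is 1.72-fold lower with a 95% interval of 1.36 to 2.19. On the log2 scale the change was -0.78 ± 0.14 (SE), with a limma adjusted p of 0.0235 over all genes. In size it exceeded the changes of 91.3% of all genes. The processed intensities before any scaling were also apart, at 31480 to 41724 on the control arrays and 20059 to 26591 on the knockdown arrays. Within the slide row that holds control and knockdown replicates 1 and 2, the change was -0.83, and in the row with the other array of each group it was -0.69.

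The call for Nfe2 was close to the threshold. It was lost without control replicate 1 (adjusted p = 0.088), control replicate 2 (0.0539), control replicate 3 (0.0661), knockdown replicate 1 (0.109) or knockdown replicate 2 (0.0757), and held without knockdown replicate 3 (0.0242), all from limma. The change itself stayed between -0.90 and -0.72 in these fits. Over all 19 other settings it lay between -1.02 and -0.68, and the end farthest from 0 came from array median scaling, which put the all-gene median at -0.27 (adjusted p = 0.124). In that setting limma gave every measured member and Chd4 the same SE, 0.37. Its p-values there therefore do not follow each gene's own spread. Relative to the median of all genes the change of Nfe2 was between -0.90 and -0.63.

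**Figure D2:**
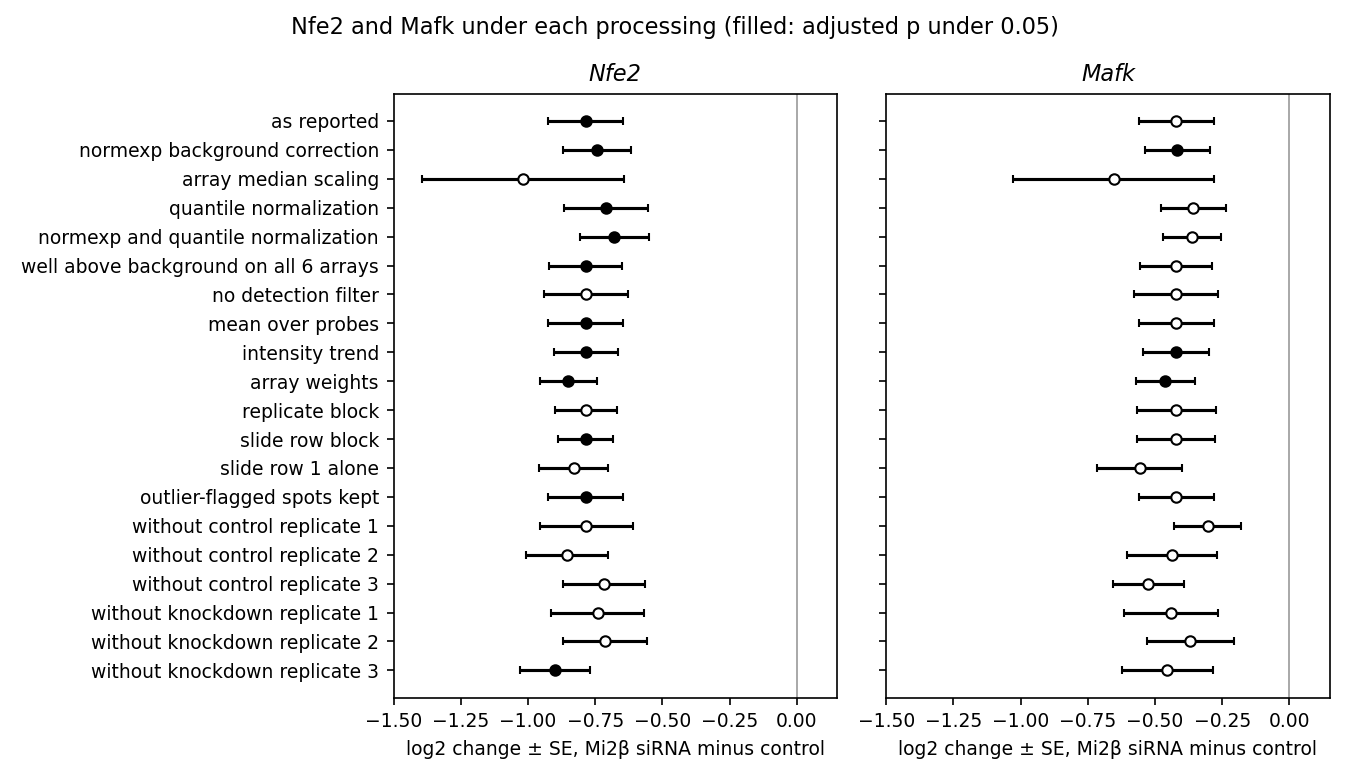
Log2 change ± SE, Mi2β siRNA minus control (horizontal axis), of Nfe2 (left) and Mafk (right) under the processing used for the text and 19 other settings (vertical axis). Filled points have a limma adjusted p under 0.05: all values lie below 0, and Nfe2 is past the threshold in 10 of the 19 other settings and Mafk in 3.

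Several markers of the megakaryocyte, a lineage that also uses NF-E2, fell as well. Of 11 listed, 9 were measured. Beside 4.56% of all genes that fell and 4.99% that rose, 4 of the 9 fell (Gp9, Itgb3, Pf4 and Gp1ba) and none rose (1 at an unadjusted p under 0.05). That one, the integrin gene Itga2b, went the other way: it was -3.26, -4.45 and -4.33 on control arrays and -2.79, -2.21 and -2.51 on knockdown arrays, higher without overlap. Its change of 1.51 ± 0.35 (SE) just missed the threshold (limma adjusted p = 0.0508), and it passed in 7 of 19 other settings, among them without control replicate 1 (1.89; limma adjusted p = 0.015), with a change of 0.51 to 1.89 over all 19. The summed linear signal of all 11, measured or not, was 62.6 to 67.9 times the 75th percentile on control arrays and 21.5 to 28.8 times on knockdown arrays, so the groups were apart. Itga2b, at low signal, adds little to that sum. The platelet chemokine gene Ppbp was detected on no array. The call of Gp1ba was lost in limma fits without any 1 of the arrays other than knockdown replicate 3 (adjusted p from 0.0546 to 0.0907). In a bulk sample, fewer cells of a type and less RNA per cell cannot be told apart, and the part of such cells in the fall of Nfe2 was not tested.

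Nfe2l2, which encodes NRF2, the activator of antioxidant and detoxifying genes, was 3.81, 4.31 and 4.10 on control arrays and 3.86, 3.90 and 3.69 on knockdown arrays. The groups overlapped, since control replicate 1 lay below 2 knockdown arrays. The change of -0.25 ± 0.15 (SE) missed the threshold (limma adjusted p = 0.395), with a 95% interval from -0.63 to 0.12. Nfe2l1 encodes NRF1, a factor anchored in the endoplasmic reticulum that drives proteasome genes when it is released. It was -1.58, -1.22 and -1.51 on control arrays and -1.25, -1.14 and -1.72 on knockdown arrays, where the knockdown arrays include both the highest and the lowest value. Its change was 0.07 ± 0.19 (SE; 95% interval -0.39 to 0.53; limma adjusted p = 0.875), and it had opposite signs in the 2 slide rows (0.20 and -0.21).

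The small Maf genes encode the common partners of all the CNC and Bach proteins. Mafk was 3.85, 3.70 and 3.87 on the knockdown arrays. On the control arrays it was 4.47 for replicate 1, 4.02 for replicate 3 and between these for replicate 2, so the groups did not overlap. The change of -0.42 ± 0.14 (SE), 1.34-fold lower, had a 95% interval from -0.76 to -0.08 and an unadjusted p of 0.0236, but it missed the threshold after adjustment over all genes (limma adjusted p = 0.133). It passed with normexp background correction (0.0482), with an intensity trend in the variance (0.0461) and with array weights (0.0337), and over all 19 settings its limma adjusted p ran from 0.0337 to 0.516. The change was -0.56 in the first slide row and -0.15 in the second.

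Mafg was read by 4 probes, which share the transcript and are not replicates. The probe with the highest mean, A_66_P116632, was 4.80, 4.92 and 4.41 on control arrays and 4.64, 4.48 and 4.58 on knockdown arrays, with control replicate 3 below every knockdown array. Its change was -0.15 ± 0.15 (SE; limma adjusted p = 0.63; 95% interval -0.52 to 0.23), with opposite signs in the first and second slide rows (-0.30 and 0.17). The changes at the other probes were -0.08, -0.09 and -0.09, and the 4 probes differed by less than any of their standard errors. All 4 lie between chr11:120486465 and chr11:120490625 in mm9, and RefSeq places the long non-coding RNA Gm17586 over the same locus.

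Maff, the small Maf that inflammatory and stress signals induce, varied most between arrays. It was -0.90, -1.11 and -0.55 on control arrays and -1.69, -1.31 and -0.46 on knockdown arrays, and knockdown replicate 3 was the highest of the 6 while knockdown replicate 1 was the lowest. The change of -0.30 ± 0.34 (SE) had a 95% interval from -1.13 to 0.53 and a limma adjusted p of 0.658, so neither a fall as large as that of Nfe2 nor a rise can be told from 0 at this precision. It was -0.49 in the first slide row and 0.10 in the second.

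Bach1 encodes the haem-sensing repressor that competes with NF-E2 and NRF2 for small Maf partners. It was 2.52, 2.75 and 2.48 on control arrays and 2.40, 2.27 and 2.59 on knockdown arrays, with knockdown replicate 3 above 2 control arrays. The change was -0.16 ± 0.13 (SE; 95% interval -0.48 to 0.16; limma adjusted p = 0.53), with opposite signs in the first and second slide rows (-0.30 and 0.11).

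Bach2, the repressor best known from lymphocytes, had 2 probes and neither passed the filter. Probe A_66_P114768 never stood well above background, with processed intensities of 2.52 to 4.25. Probe A_55_P1956370 was 2.90, 2.76 and 3.06 on control arrays and 2.72, 18.6 and 4.27 on knockdown arrays, and only the 18.6 of knockdown replicate 2 was well above background. The lowest signal that any probe well above background had was 12.5 to 14.5 on control arrays, 9.24 on knockdown replicate 2 and 20.3 on knockdown replicate 3. No fold or change is therefore given for Bach2.

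Keap1, the adaptor that brings NRF2 to the Cul3 ubiquitin ligase, varied least. It was 4.23, 4.32 and 4.29 on control arrays and 4.18, 4.16 and 4.19 on knockdown arrays, so every knockdown array was lower. The difference was small, -0.10 ± 0.08 (SE), and the 95% interval of -0.31 to 0.10 (limma adjusted p = 0.527) includes 0. Its 60-base probe spans 441 bases of the genome at chr9:21035292-21035732 in mm9. The other genes of the turnover pathways of NRF2 and NRF1, such as ubiquitin ligase subunits, were 17 in all. All 17 were measured and none rose or fell (0 also at an unadjusted p under 0.05), against 9.56% of all genes that did. The largest changes were -0.39 ± 0.16 (SE) for the autophagy receptor Sqstm1, which competes for Keap1, and 0.28 ± 0.12 for Btrc, a ligase subunit that recognises phosphorylated NRF2.

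**Figure D3:**
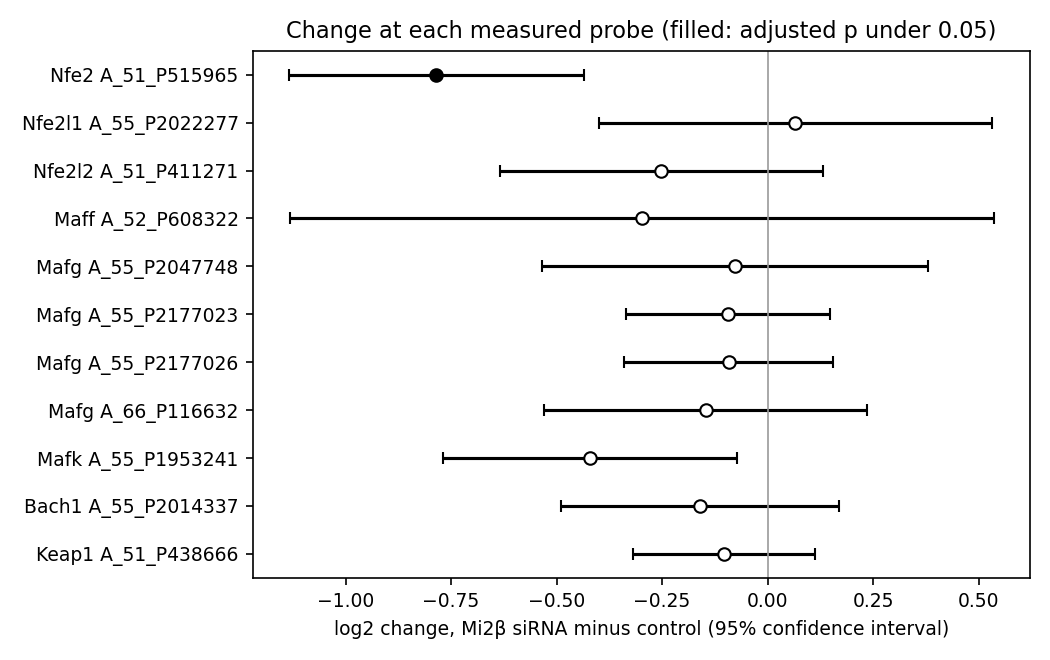
Log2 change, Mi2β siRNA minus control, with its 95% confidence interval (horizontal axis) for each of the 11 probes of the 8 measured genes (vertical axis), 3 arrays per group. The single filled point, the Nfe2 probe at -0.78, has a limma adjusted p under 0.05 over 31853 probes (0.0277), where 3.88% of all probes fell and 8.19% changed in either direction, and the 4 Mafg probes lie between -0.15 and -0.08.

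Differences between members within each array do not depend on the scaling between arrays, and 6 pairs were compared. Such a difference can be followed between groups, but its size in 1 group is that of 2 probes and not of 2 transcripts. With 3 arrays against 3 the smallest p that an exact permutation test can give is 0.1, so none could pass 0.05. Nfe2 relative to Bach1 was 4.08, 3.70 and 4.25 on control arrays and 3.32, 3.40 and 3.44 on knockdown arrays, which do not overlap. That difference changed by -0.62 (exact two-sided permutation p = 0.1; adjusted over 6 pairs, 0.24). Nfe2 relative to Mafg changed by -0.64, again without overlap (exact permutation p = 0.1; adjusted 0.24), and relative to Nfe2l2 by -0.53 and to Mafk by -0.36, both with overlap (exact permutation p = 0.2; adjusted 0.24). Mafg relative to Mafk changed by 0.27 (exact permutation p = 0.2; adjusted 0.24) and Nfe2l2 relative to Keap1 by -0.15 (exact permutation p = 0.4; adjusted 0.4). Relative to Bach1 and to Mafg, Nfe2 was thus lower with each knockdown array than with each control array, at the limit of what 6 arrays can test.

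Of the genes with a symbol, the 5 whose values followed Nfe2 most closely over the 6 arrays were Kel (Pearson r = 0.997), Stk19 (0.996), Nbr1 (0.996), Ddit3 (0.995) and Dhrs1 (0.993). Names of the Rik, Gm or LOC kind were left out of this ranking. These arrays share their groups, so r carries the gap between control and knockdown as well as the spread within each. Ddit3, a stress-induced basic leucine zipper factor, changed by -0.78 (limma adjusted p = 0.0132). The autophagy receptor gene Nbr1 had a change of -0.42 and missed the threshold (limma adjusted p = 0.0678).

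Of the factors related to the 9 genes but outside them, 3 were measured, and those given here other than Nrl were named after their values were seen. Nrl, a large Maf factor known from rod photoreceptors, was -3.37, -3.53 and -2.74 on control arrays and 0.27, 0.69 and 1.11 on knockdown arrays, which lie far apart. It rose by 3.90 ± 0.29 (SE; limma adjusted p = 0.00135), 15.0-fold, and its other probe, 8 bases away, gave 3.46 ± 0.21. Nfe2l3, the remaining CNC gene, had a change of 0.46 ± 0.25 (limma adjusted p = 0.341) and Mafa one of -0.02 ± 0.11. Maf, another large Maf gene, was detected on no array.

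The targets that general knowledge assigns to these factors were read from the same limma fit. In all, 106 distinct pathway genes were measured, of which 11 rose and 5 fell, beside 4.99% and 4.56% of all genes. The lists were drawn up with results of these data known, so their counts are a description. With array median scaling the calls of Trib3, Prdx1, Abcc4, Hbb-bt, Alas2, Gata3 and Cdkn1a described here were lost (limma adjusted p from 0.0588 to 0.726), each keeping its direction. In that setting limma gave the measured members and Chd4 the same SE (0.37), so the p-values there do not follow each gene's own spread.

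For NF-E2 itself, 15 of 16 erythroid and megakaryocyte targets were measured, and 5 rose while 1 fell, beside 4.99% and 4.56% of all genes. With array weights 5 rose and 4 fell, and over the 19 other settings 3 to 5 rose and 1 to 4 fell. The 3 largest rises were embryonic globin genes. Hbb-bh1 was 2.42, 2.63 and 2.29 on control arrays and 7.87, 7.67 and 7.84 on knockdown arrays, a rise of 5.34 ± 0.12 (SE; limma adjusted p = 3.38e-05), 40.6-fold. Hbb-y rose by 4.89 ± 0.17 and Hba-x by 3.54 ± 0.20, the latter well above background on 2 of 3 control arrays. With normexp background correction the rise of Hba-x was 1.77 (limma adjusted p = 4.01e-06). Alas2, the first enzyme of erythroid haem synthesis, rose by 1.06 ± 0.12 (limma adjusted p = 0.00467). Rab27b, a GTPase of platelet granules, went the other way: it was 2.04, 2.27 and 2.04 on control arrays and 0.70, 0.64 and 0.69 on knockdown arrays, a fall of 1.44 on the log2 scale (SE 0.10; limma adjusted p = 0.00121). The median change of the 15 was 0.01, or -0.23 with array median scaling. The call of Alas2 was lost with array median scaling (adjusted p = 0.309).

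For NRF2, 32 of 37 targets were measured, and 4 fell while 1 rose, beside 4.56% and 4.99% of all genes. Over the 19 other settings 2 to 7 fell and 0 to 2 rose: 7 and 2 with the intensity trend or array weights. Only 2 fell with array median scaling, without the detection filter or with the replicate block. The same number fell without control replicate 1, control replicate 2 or knockdown replicate 2. None rose with array median scaling or in slide row 1 alone. Ugdh, which makes UDP-glucuronate for conjugation, was 0.55, 0.43 and 0.24 on control arrays and -1.81, -2.40 and -2.12 on knockdown arrays. On the log2 scale it fell by 2.52 (SE 0.18; limma adjusted p = 0.00117), 5.73-fold lower. Nqo1, the quinone reductase often used as a readout of NRF2, fell by 1.38 (SE 0.10; limma adjusted p = 0.00141), from 1.12, 1.23 and 1.05 to -0.30, -0.13 and -0.32. Prdx1, a peroxide-reducing enzyme, was 5.86, 5.97 and 5.81 on control arrays and 6.77, 6.75 and 6.67 on knockdown arrays, a rise of 0.85 ± 0.09 (limma adjusted p = 0.00463) that missed the threshold within slide row 1 (0.0559). Ugdh and Prdx1, whose promoters are printed with the probes, thus moved in opposite directions.

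The remaining falls among NRF2 targets were smaller and closer to the threshold. The pseudokinase gene Trib3 fell by 0.91 on the log2 scale (SE 0.16; limma adjusted p = 0.021) and the exporter gene Abcc4 by 0.81 (SE 0.14; limma adjusted p = 0.0229). The call of Trib3 was lost without control replicate 1 or 2 or knockdown replicate 1 or 2 (limma adjusted p from 0.0653 to 0.0993). That of Abcc4 was lost without any 1 array other than knockdown replicate 1 (0.0537 to 0.0721). Hmox1, the haem-degrading enzyme, was named after its value was seen: its change was -0.37 ± 0.19 (limma adjusted p = 0.322). The median change of the 32 was -0.14, or -0.37 with array median scaling.

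For Bach1, 15 of 16 listed haem and iron genes that it represses were measured, with 1 rise and 1 fall, beside 4.99% and 4.56% of all genes. The adult beta-globin gene Hbb-bt, whose near-identical copies can share its probe, rose by 0.81 ± 0.11 (SE; limma adjusted p = 0.00933), a call lost without knockdown replicate 1 (limma adjusted p = 0.0545). The other adult globin genes of the list, named after their values were seen, did not pass. Hbb-b2 had a change of 0.01 ± 0.11 (limma adjusted p = 0.978), Hba-a1 one of 0.09 and Hba-a2 one of -0.09. The fall is that of Nqo1, which the list shares with that of NRF2, and the median was 0.01. For NRF1, all 33 listed proteasome genes were measured and none rose or fell, against 9.56% of all genes that did. At an unadjusted p under 0.05 with limma their count was also 0. In 9 of the 33 every knockdown array was lower, against 18.4% of all genes, and in 0 every knockdown array was higher, against 12.7%. The change was below 0 in 23 of the 33, against 54.5% of all genes. Their median change was -0.05, or 0.04 with quantile normalization. The largest changes were -0.21 ± 0.13 (SE) for Psmc6 and -0.20 ± 0.11 for Psma2, subunits of the regulatory and the core particle.

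For Bach2, which was itself at background, 5 of 8 listed targets were measured and 4 rose, beside 4.99% of all genes. This list too was drawn up with results of these data known, so the count is a description. Il1rl1, the interleukin-33 receptor, was 0.20, 0.75 and 0.54 on control arrays and 3.36, 3.64 and 3.81 on knockdown arrays, a rise of 3.11 ± 0.19 (SE; limma adjusted p = 0.000748). The lipid receptor gene S1pr1 rose by 2.15 ± 0.13, and was well above background on 2 of 3 control arrays. With normexp background correction its change was 0.77, still past the threshold (limma adjusted p = 0.000415). Gata3, a lymphoid GATA factor, rose by 0.75 ± 0.13 (limma adjusted p = 0.0212) and the cell cycle inhibitor gene Cdkn1a by 0.59 ± 0.10 (limma adjusted p = 0.0218). Prdm1, named after its value was seen, had a change of 0.09 ± 0.15. The call of Gata3 was lost without control replicate 2 or any 1 knockdown array (limma adjusted p from 0.0586 to 0.0958), and that of Cdkn1a without any 1 array other than knockdown replicate 2 (0.058 to 0.0961). With all probes of a gene averaged, Cdkn1a had a change of 0.22 (limma adjusted p = 0.222). Mast cells also carry Il1rl1: of 7 mast cell markers 5 were measured and 2 rose (Mcpt4 and Tpsab1), beside 4.99% of all genes. The summed linear signal of the mast cell markers was 0.672 to 0.75 times the 75th percentile on control arrays and 1.59 to 1.65 times on knockdown arrays. Ms4a2 and Fcer1a were detected on no array. Tpsab1 was detected on 0 of 3 control arrays and 3 of 3 knockdown arrays, so it passed the detection filter through the knockdown group alone, and with normexp background correction its change was 0.48 in place of 2.67. The part of such cells in these rises was not tested.

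**Figure D4:**
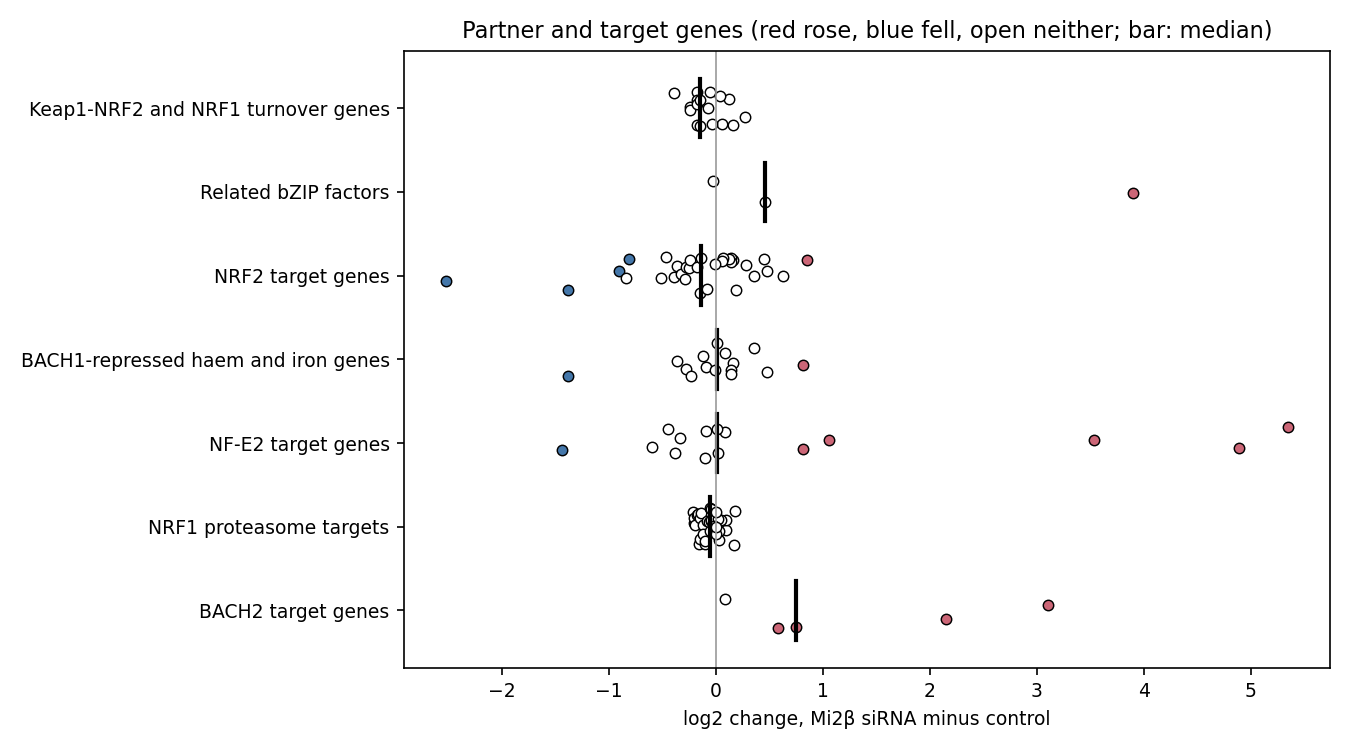
Log2 change, Mi2β siRNA minus control (horizontal axis), of each measured gene in the 7 lists of partner and target genes (vertical axis), spread vertically at random for visibility. Red genes rose and blue genes fell at a limma adjusted p under 0.05, open points did neither, and the black bar is the median: the 33 proteasome genes lie near 0, while embryonic globin genes, Nrl and Il1rl1 lie above 3 and Ugdh lies at -2.52.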

How the data were processed

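RNA of 6 samples was hybridised to 1-colour Agilent arrays. The authors deposited scanner intensity values on a linear scale, written by Feature Extraction 10.7.3.1, per the headers of the files, with background subtracted and no normalization between arrays. The submitters' processing notes also name limma. A value table the authors deposited repeats these intensity values and was not used further. Each array has 62976 spots. Control spots and outlier-flagged spots were dropped, and the array's 75th percentile was subtracted from log2 intensity. Probes were kept if 3 or more of the 6 arrays read them well above background, and the probe with the highest mean stands for its gene. Names were updated through RefSeq: 27509 of 29150 probes with an accession matched. Probe coordinates are in mm9, and exons or untranslated regions under them were not analysed here.

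Groups were compared in R 4.3.3 by lmFit and eBayes of limma 3.58.1, two-sided and without covariates, with Benjamini-Hochberg adjustment over 22133 genes and a threshold of 0.05. "Rose" and "fell" are used only past the threshold. The number of arrays limits the precision. Members and lists were chosen with earlier results of these data known. The text names all members, Chd4, up to 4 genes per list and direction by size of change (where none passed, up to 2), and the 5 genes most like Nfe2. Others are said to be named after their values were seen. An item of the lists is not reported here. Alternatives varied the background correction, scaling, filter, probe rule, variance model, slide row, replicate block and each array.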

Additional observations from a re-analysis of the deposited data

Results flagged for a closer look

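Bach2, which entered no comparison, gave a processed intensity of 18.6 on knockdown replicate 2 with probe A_55_P1956370. That is above its 2.76 to 3.06 on the control arrays and is the only one of 12 readings of the 2 Bach2 probes that was well above background. The other probe read 2.52 on that array. That array also had the largest share of probes well above background, 74.0%. The part of the array in the reading was not tested.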

How the results depend on the processing

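Precision is set by 3 arrays per group, and genes that missed the threshold are bounded only by their intervals. Over 19 settings the change of Nfe2 kept its direction and its call held in 10. No member rose in any setting. Member genes that fell numbered 2 (as did member probes) with normexp, the intensity trend or array weights, and 0 (0 probes) without the detection filter, with array median scaling or in slide row 1 alone. Leaving out 1 array gave 0 to 1 member genes and 0 to 1 member probes, with 557 to 898 of all genes rising and 256 to 681 falling. All genes that fell numbered 1662 with normexp and 1788 with the trend. Genes that rose and fell numbered 496 and 335 with array median scaling, 1854 and 1694 with normexp and quantile normalization, 661 and 332 without the filter, 2180 and 2549 with array weights, and 494 and 226 in slide row 1 alone. Nfe2l1 changed sign with array median scaling (-0.17), without control replicate 1 (-0.0064) and without knockdown replicate 2 (-0.048; up to 0.24 without other arrays), and Keap1 with normexp and quantile normalization (0.021). The cause was not tested.

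Samples share only a replicate number: deviations of same-numbered arrays correlated at 0.21, -0.32 and 0.13. With the replicate block 502 genes rose and 183 fell, 0 member genes and 0 member probes fell, and Nfe2 had a limma adjusted p of 0.0582.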
